A study of Arabidopsis thaliana with 24 samples.

Results

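MCCA (AT1G03090) and ProDH (AT3G30775) are a pair of Arabidopsis thaliana genes that encode mitochondrial enzymes of amino acid breakdown, and their transcripts were followed through the 6 groups of the study on 2 of the 22810 probe sets of the Affymetrix ATH1 array. MCCA was read from probe set 263118_at, which the platform annotation names. ProDH was read from probe set 257315_at, which that annotation leaves unnamed and which was taken as proline dehydrogenase from the rule that chose the pair. The pair was chosen by the measured log2 levels in these 6 groups, so its levels and differences are given as a description and were not tested.

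RNA came from rosettes of 4-week-old plants grown at 22 °C under a 14 h photoperiod, with 4 arrays in each of 6 groups. Wild-type Col-0 plants and mil4 mutants received a spray of 300 µM BTH or of water, and the mil4 sid2 double mutant and the sid2 mutant one of water, in every case 2 days before collection. The title of the series gives MIL4 as MILDEW-INDUCED LESIONS 4, a regulator of the salicylic acid defence response. sid2 is a mutation in the isochorismate synthase gene of salicylic acid synthesis, and BTH is a synthetic compound that acts like that hormone. The labels name no allele of mil4 or sid2 and do not say whether plants were pooled, and they call the replicates biological.

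Plants break down leucine, isoleucine and valine in mitochondria. A branched-chain aminotransferase and a keto acid dehydrogenase complex form acyl-CoA esters, isovaleryl-CoA dehydrogenase (IVD) oxidizes the ester from leucine, and 3-methylcrotonyl-CoA carboxylase then acts on its product. That carboxylase is built from the biotin-bearing alpha subunit encoded by MCCA and the beta subunit encoded by MCCB. ProDH carries out the first step of proline breakdown, giving pyrroline-5-carboxylate, and feeds electrons into the respiratory chain. Both routes are known to be used as alternative fuel when leaves run short of sugar, and ProDH is also known as a gene that proline itself and relief from drought induce.

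The arrays had medians of 151.85 to 185 intensity units and a like trimmed mean (500 to 500.1). RCA, which encodes Rubisco activase, was the 1 gene of 12 leaf markers with a named probe set. It was bright on every array (14.22 to 15.02 on the log2 scale), and 0 of 6 floral and 0 of 5 root markers had a named probe set. The array records give hybridization times on 4 days. A gap of over 30 minutes between these times was taken to start a new run, which gave 8 runs. Only run 2 held arrays of both Col and mil4, 1 of each of their groups. With run as a block, any difference between mil4 and Col thus rests on that run. Arrays of Col and mil4 shared days 1 to 3, and all 8 arrays of sid2 and mil4 sid2 were hybridized on day 4, so a difference between either of these genotypes and Col or mil4 cannot be told apart from a difference between days. GAPDH probe sets at the 3′ and 5′ ends of the transcript give a ratio that reflects how intact the RNA was. Without BTH this ratio was 0.854 ± 0.116 for Col (SD, n = 4), 1.03 ± 0.435 for mil4, 1.09 ± 0.0174 for mil4 sid2 and 1.16 ± 0.0567 for sid2. After BTH it was 0.947 ± 0.136 for Col and 0.855 ± 0.134 for mil4. It was highest on mil4 water replicate 4 (1.65). Its part in the results was not tested, and in whole rosettes more cells with a transcript cannot be told apart from more transcript per cell.

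MCCA gave intensities of 357.8, 461.4, 512.0 and 373.6 on the 4 Col water arrays and 292.2, 468.6, 439.6 and 450.7 on the Col BTH arrays. In mil4 it gave 1395.2, 1220.2, 1300.3 and 1031.8 with water and 814.5, 611.6, 557.0 and 956.9 with BTH. The wild-type arrays were low whatever the spray, every mil4 array lay above all of them, and within mil4 every BTH array lay below every water array. In mil4 sid2 MCCA gave 2163.2, 1932.8, 1656.6 and 2056.1, and in sid2 it gave 2578.2, 2242.9, 2086.8 and 2214.6. These 8 arrays were above all others, and the 2 genotypes overlapped.

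ProDH had the lowest level in Col with water, at 635.1, 343.4, 482.1 and 491.8, and gave 812.0, 2259.5, 972.9 and 1220.0 in Col with BTH. All 4 BTH arrays of Col lay above all 4 water arrays, with replicate 2 far above the other 3. In mil4 it gave 6115.5, 6244.0, 4537.6 and 5242.0 with water and 3275.9, 3861.2, 3280.4 and 5909.0 with BTH. Here the groups overlapped, through BTH replicate 4. The mil4 sid2 arrays (6225.3, 6226.6, 5569.0 and 6300.0) lay among the mil4 water arrays or just above them, and the sid2 arrays (10510.3, 8243.8, 9079.0 and 8294.3) lay above every other array.

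**Figure D1:**
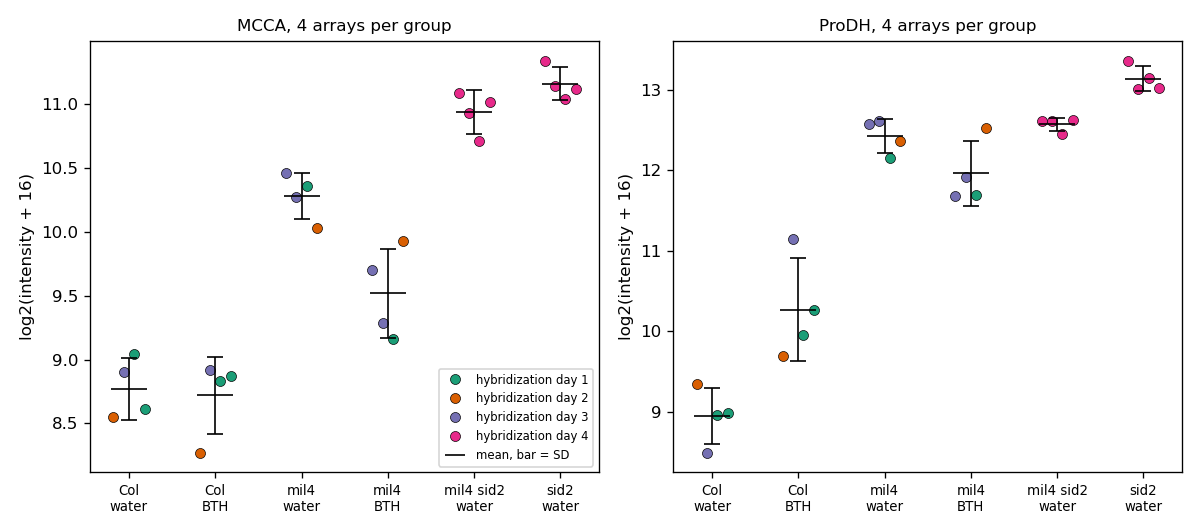
Levels of MCCA (left) and ProDH (right) as log2(intensity + 16) on each of the 24 arrays, by group and coloured by hybridization day, with the mean and SD of 4 arrays in black. Both genes were low in Col and highest in sid2, with mean levels from 8.72 to 11.16 for MCCA and from 8.95 to 13.14 for ProDH.

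On the scale of log2(intensity + 16), used for all differences here, the mean level of MCCA was 8.72 ± 0.30 (SD, n = 4) in Col with BTH, 8.77 ± 0.24 in Col with water, 9.52 ± 0.35 in mil4 with BTH, 10.28 ± 0.18 in mil4 with water, then 10.94 ± 0.17 for the double mutant and 11.16 ± 0.13 for sid2. In this order the neighbours that overlapped were the 2 Col groups and the 2 genotypes with sid2. The mean level of ProDH was 8.95 ± 0.35 in Col with water, 10.27 ± 0.64 in Col with BTH, 11.96 ± 0.40 in mil4 with BTH, 12.43 ± 0.21 in mil4 with water, then 12.57 ± 0.08 for the double mutant and 13.14 ± 0.16 for sid2. For ProDH the neighbours that overlapped were mil4 with BTH and with water, and mil4 with water and mil4 sid2. The 2 genes thus had the same order of groups but for Col with BTH and Col with water, which changed places.

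Among water-treated plants the pair stood higher in each mutant than in Col. MCCA was 2.85-fold higher in mil4 (log2 difference 1.51, SE 0.17), 5.23-fold in sid2 (2.39, SE 0.17) and 4.47-fold in mil4 sid2 (2.16, SE 0.17), with no overlap of arrays. ProDH was 11.2-fold higher in mil4 (3.48, SE 0.24), 18.3-fold in sid2 (4.19, SE 0.24) and 12.3-fold in mil4 sid2 (3.63, SE 0.24), again with no overlap. Ranked from the largest increase, with decreases last, ProDH was number 3, 2 and 3 of 22746 probe sets in these comparisons, and MCCA number 75, 16 and 22. The comparisons share the Col water arrays. As background, limma called 7.4%, 13.5% and 13.6% of all probe sets in either direction at the 0.05 threshold, and nothing is read from these shares for the pair. The difference between mil4 and Col was seen on each shared day, at 1.54, 1.49 and 1.47 for MCCA and 3.18, 3.01 and 4.11 for ProDH on days 1, 2 and 3.

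Both genes had a level in the mil4 sid2 double mutant between those of mil4 and sid2. MCCA was 0.65 higher in mil4 sid2 than in mil4 (SE 0.17), with no overlap, and 0.23 lower in mil4 sid2 than in sid2 (difference -0.23, SE 0.17), with overlap. ProDH was 0.15 higher in the double mutant than in mil4 (SE 0.24), with overlap, and lower than in sid2 (difference -0.56, SE 0.24), without. The difference between the mil4 effect in sid2 plants and in plants with SID2 was -1.73 for MCCA (SE 0.24) and -4.04 for ProDH (SE 0.35). Each of these effects lies within shared days, and with day as a term in the fit the values could still be estimated, unlike the difference between sid2 and Col. Only 0.47% of all probe sets were called between the double mutant and sid2, 5.57% between it and mil4, and 5.32% in the interaction.

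With BTH, ProDH had a higher mean in Col and both genes had a lower mean in mil4. In Col, MCCA was at -0.05 (SE 0.17) with overlap and ProDH at 1.32, a level 2.5-fold higher (SE 0.24) without overlap. In mil4, MCCA was at -0.76, a level 1.7-fold lower (SE 0.17), and ProDH at -0.47 (SE 0.24) with overlap. The response in mil4 minus that in Col was -0.71 for MCCA (SE 0.24) and -1.79 for ProDH (SE 0.35). It was uneven over days 1, 2 and 3, at -1.22, 0.17 and -0.89 for MCCA and -1.6, -0.17 and -3.46 for ProDH. After BTH the mutant was still above Col, by 0.80 for MCCA (SE 0.17) and 1.69 for ProDH (SE 0.24), with no overlap. Within days 1, 2 and 3 this difference was 0.31, 1.66 and 0.58 for MCCA and 1.58, 2.84 and 0.65 for ProDH. Of all probe sets 12.7% were called with BTH in Col, 17.4% with BTH in mil4, 1.01% in the interaction and 3.29% between the genotypes after BTH.

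Within Col and within mil4, water and BTH arrays with the same replicate number were hybridized in the same run, so the BTH difference could be read within runs. In Col it was -0.28, 0.02, -0.21 and 0.26 for MCCA in replicates 1 to 4, on both sides of 0, and 0.35, 2.66, 0.99 and 1.28 for ProDH, always above 0. In mil4 it was -0.76, -0.98, -1.20 and -0.11 for MCCA, always below 0, and -0.90, -0.69, -0.47 and 0.17 for ProDH. Replicates 1 and 2 of mil4 were all in run 6, so which water array goes with which BTH array there is set by number alone. Replicate 4 of mil4 gave the difference closest to 0 for MCCA and the 1 positive value for ProDH. The water array of this pair had the highest GAPDH ratio of all arrays (1.65), and whether the 2 are linked was not tested. Water and BTH arrays of a genotype were never run on the same fluidics module. Within Col and mil4, BTH and module thus cannot be told apart. A fit with module as a block separates them only through the sid2 and mil4 sid2 arrays of day 4. In that fit the difference was 1.24 for ProDH in Col (SE 0.38) and -0.87 for MCCA in mil4 (SE 0.25).

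**Figure D2:**
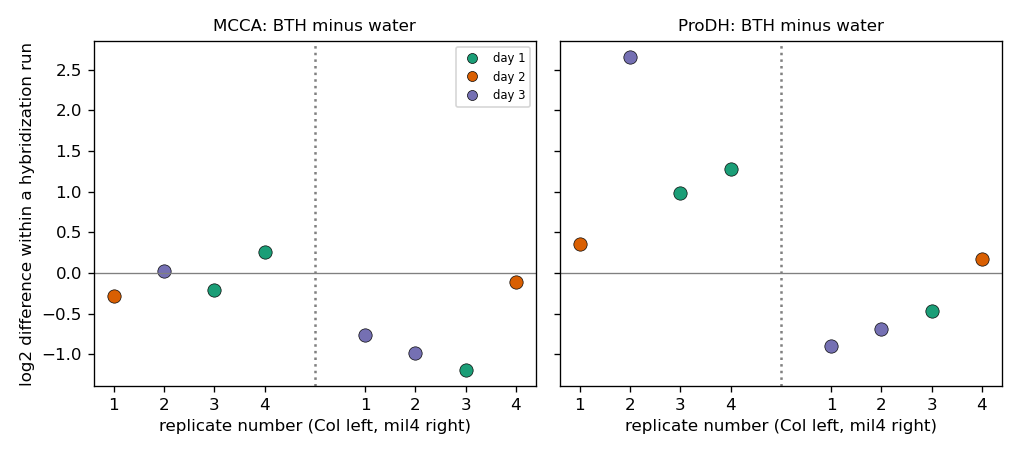
Log2 level with BTH minus log2 level with water for MCCA (left) and ProDH (right) in each same-numbered pair of arrays, Col and mil4 side by side, coloured by hybridization day. ProDH lay above 0 in all 4 Col pairs (0.35 to 2.66), and MCCA below 0 in all 4 mil4 pairs (-1.20 to -0.11).

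Over the 24 arrays the levels of MCCA and ProDH had a Pearson's r of 0.881 (Spearman's rho 0.923), a value that describes mainly the differences between groups. Of 22745 probe sets, ProDH was number 73 by r to MCCA, and MCCA number 55 by r to ProDH. After the group means were taken out the r between them was 0.414 over the same arrays. Both genes were read on each array and so share its scaling and run.

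The rest of the branched-chain route was read on the 11 further genes, of a list of 20, that had a named probe set, and only part of it was raised in the mutants. Against Col with water, 2 of the 11 were higher in mil4 (limma, adjusted p under 0.05 over all probe sets), 4 in sid2 and 5 in mil4 sid2, where 3.24%, 6.64% and 7.03% of all probe sets were called higher. Most of the 11 were brighter than the median probe set. In a fit of the 11373 probe sets above the median, 901, 1572 and 1872 were called higher, which are larger shares. None of the 11 was lower, where 4.17%, 6.82% and 6.58% of all probe sets were. The median log2 difference of the 11 was 0.15, 0.22 and 0.25, where all probe sets had medians of -0.001, 0.092 and 0.075. These 3 comparisons share the Col water arrays, and those with sid2 and mil4 sid2 also differ in hybridization day. The list was drawn up with earlier results of these data known, so its counts are no independent support.

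MCCB, the partner subunit of MCCA, gave 576.6, 559.6, 627.3 and 515.4 in Col with water, 768.3, 675.4, 787.8 and 832.4 in mil4, 1408.5, 1063.0, 1031.5 and 1068.2 in sid2 and 1058.8, 982.6, 1031.5 and 1021.5 in mil4 sid2. None of the mutant arrays overlapped with Col. MCCB rose 1.33-fold in mil4 (log2 difference 0.42, SE 0.10, adjusted p = 0.0152 in limma), 1.97-fold in sid2 (0.98, SE 0.10, adjusted p = 1.41e-06) and 1.78-fold in mil4 sid2 (0.83, SE 0.10, adjusted p = 8.37e-06). These differences have the order of those of MCCA and are smaller. The call in mil4 ended with replicate 4 of either water group left out (adjusted p = 0.06 for Col and 0.0528 for mil4). With run as a block the comparison rests on run 2, and the difference was 0.55. Within days 1, 2 and 3 the difference was 0.46, 0.52 and 0.36.

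ALDH6B2, which encodes methylmalonate semialdehyde dehydrogenase of valine breakdown, was among the genes closest to MCCA in pattern (r 0.954 over 24 arrays, and 0.77 after the group means were taken out). It gave 2227.9, 2223.9, 2144.4 and 1945.6 in Col with water, 3291.2, 2870.0, 3042.7 and 2856.5 in mil4, 3917.8, 3758.0, 3463.1 and 3889.8 in sid2 and 4577.3, 4688.6, 4037.4 and 4355.5 in mil4 sid2. The 4 groups were apart from each other. It rose 1.41-fold in mil4 (0.49, SE 0.09, adjusted p = 0.000937 in limma), 1.75-fold in sid2 (0.81, SE 0.09, adjusted p = 1.92e-06) and 2.06-fold in mil4 sid2 (1.04, SE 0.09, adjusted p = 5.71e-08), and it stayed higher in mil4 than in Col after BTH (0.45, SE 0.09, adjusted p = 0.00573). With run as a block the comparison of mil4 and Col rests on run 2, and the differences were 0.45 with water and 0.41 with BTH. The values within days were 0.57, 0.36 and 0.46 with water.

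Electrons from IVD pass to the electron transfer flavoprotein, of subunits ETFALPHA and ETFBETA, and through its oxidoreductase ETFQO to ubiquinone. ETFQO gave 205.1, 216.6, 304.2 and 282.0 in Col with water, 590.2, 496.8, 584.9 and 680.7 in sid2 and 622.2, 572.2, 532.2 and 443.2 in mil4 sid2, well apart from Col. It rose 2.27-fold in sid2 (1.18, SE 0.18, adjusted p = 7.92e-05) and 2.09-fold in mil4 sid2 (1.07, SE 0.18, adjusted p = 0.00023), and ETFBETA rose 1.43-fold and 1.56-fold (0.52 and 0.64, SE 0.13, adjusted p = 0.00856 and 0.00144). In mil4 both had values above those of Col that missed the threshold (0.37 and 0.25). ETFALPHA did not follow, with -0.14 in mil4, -0.15 in sid2 and 0.25 in mil4 sid2, none of them called.

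IVD itself was at -0.05 in mil4 and 0.42 in sid2, neither called, and its call in mil4 sid2 (0.60, SE 0.19, adjusted p = 0.0413) was lost without any 1 of the 8 arrays compared (adjusted p up to 0.0995). The other 5 branched-chain genes were called in none of the 3 comparisons. They are BCE1A2 (AT5G09300) of the keto acid dehydrogenase, HML1 (AT2G26800), the lyase that ends the leucine route, HDH1 (AT4G20930), a dehydrogenase of valine breakdown, AT4G31810 of the hydroxyisobutyryl-CoA hydrolase family, and D2HGDH, which oxidizes hydroxyglutarate. Their differences ran from -0.29 for HML1 in mil4 sid2 to 0.22 for AT4G31810 in sid2 and for D2HGDH in mil4 sid2.

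**Figure D3:**
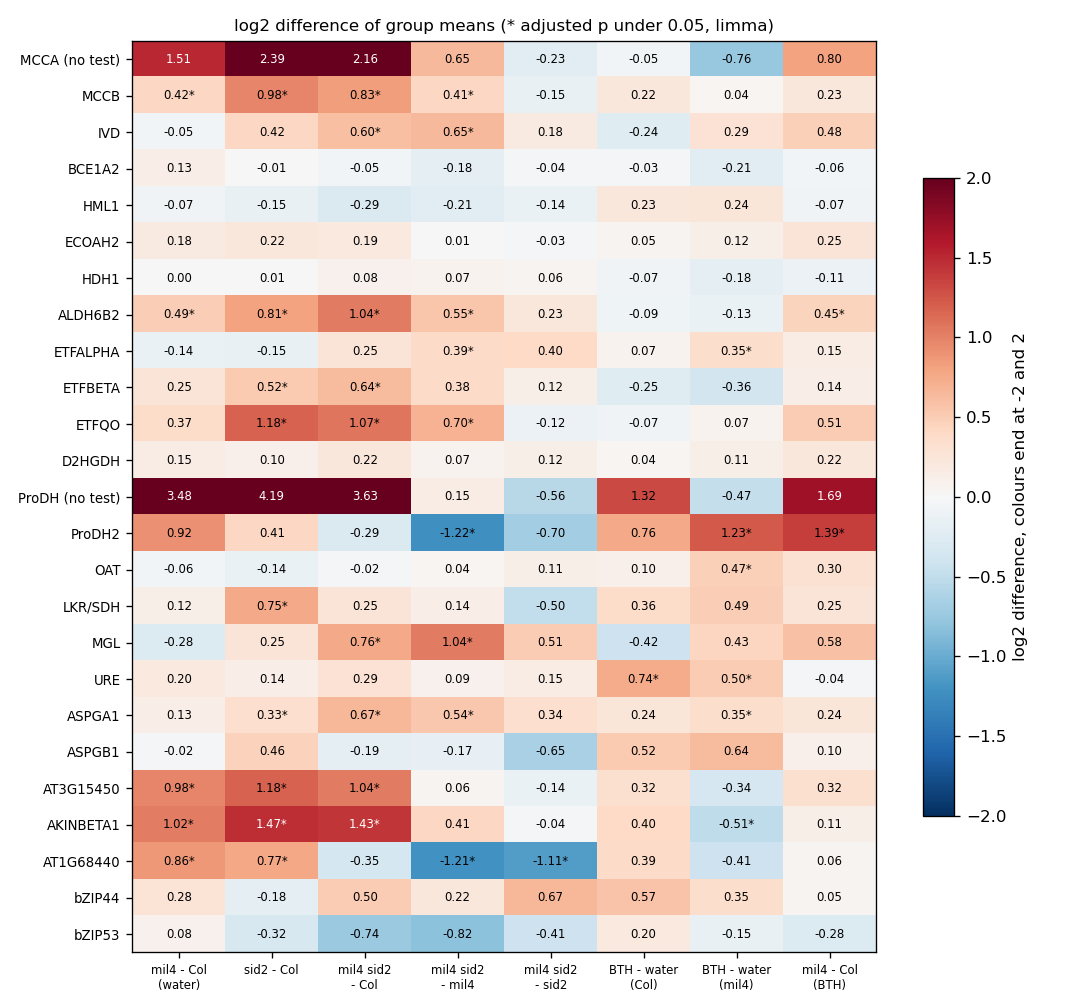
Log2 differences of group means for MCCA, ProDH and 23 further genes of amino acid breakdown, low-energy response and bZIP factors in 8 comparisons. Stars mark an adjusted p under 0.05 in limma over all probe sets, MCCA and ProDH carry no test, and colours end at -2 and 2. MCCB, ALDH6B2, AKINBETA1 and AT3G15450 were called in mil4, sid2 and mil4 sid2 against Col, and 6 further stars stand in the column of BTH in mil4, among them ProDH2, OAT and URE.

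Besides the pair, 18 of the 52 genes of the 3 amino acid lists had a named probe set, the 11 branched-chain genes among them. All 3 lists were drawn up with earlier results of these data known. Of the 18, 2 were higher in mil4 than in Col with water (11.1%, where 3.24% of all probe sets were), 6 in sid2 (33.3%, against 6.64%) and 7 in mil4 sid2 (38.9%, against 7.03%). Most of the 18 were also brighter than the median probe set, and among such probe sets the shares called higher were larger (901, 1572 and 1872 of 11373). None of the 18 was lower, where 4.17%, 6.82% and 6.58% of all probe sets were. The mil4 sid2 plants had 7 genes higher and 1 lower than mil4 (2.75% and 2.82% of all probe sets), and 0 of the 18 called against sid2, where 7 had an unadjusted p under 0.05. Leaving out 1 array at a time gave 1 to 3, 4 to 6 and 5 to 6 called genes against Col, and 4 to 8 against mil4. With mil4 against Col, Col water replicate 4 and mil4 water replicate 4 each left 1 call when left out. Against mil4 the counts fell furthest, to 4 or 5, without mil4 water replicate 1 or 2 or mil4 sid2 replicate 1, 2 or 4.

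With BTH, none of the 11 branched-chain genes was called in Col in limma, where 1 had an unadjusted p under 0.05, and 1 of 11 in mil4, ETFALPHA (0.35, SE 0.11, adjusted p = 0.0249). Any 1 of 5 arrays left out ended this call (adjusted p up to 0.0751), namely mil4 BTH replicates 1 and 4 and mil4 water replicates 1, 2 and 4. Of all 18 genes 1 rose in Col and 5 in mil4, or 5.56% and 27.8%, where 6.72% and 9.67% of all probe sets were called higher. In a fit of the 11373 probe sets brighter than the median, 1710 and 2053 were called higher, again larger shares. None of the 18 fell, where 5.97% and 7.77% of all probe sets did. URE, the urease gene, rose in both, by 0.74 in Col (SE 0.17, adjusted p = 0.0048) and 0.50 in mil4 (SE 0.17, adjusted p = 0.0453). Same-numbered Col arrays are paired, and with the replicate number as a block URE kept its call in Col when all groups were fitted (0.74, adjusted p = 0.00625) and missed the threshold when only Col was fitted (0.74, adjusted p = 0.0554). With fluidics module as a block it was also lost (0.53, adjusted p = 0.265). In mil4, URE was lost without any 1 of 6 arrays (adjusted p up to 0.192), namely all 4 mil4 water arrays and mil4 BTH replicates 1 and 3. The interaction called 0 of the 18 genes, with 1 at an unadjusted p under 0.05.

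ProDH2 (AT5G38710), which encodes a further proline dehydrogenase, shared the pattern of ProDH only in part. It gave 202.6, 208.5, 257.7 and 279.5 in mil4 with water, 778.9, 340.3, 1019.7 and 397.7 in mil4 with BTH and 100.6, 61.4, 116.7 and 98.0 in mil4 sid2. The BTH arrays lay above and the double mutant below the water arrays of mil4. ProDH2 rose 2.35-fold with BTH in mil4 (1.23, SE 0.29, adjusted p = 0.00425 in limma), where ProDH was at -0.47, and was 2.32-fold lower in mil4 sid2 than in mil4 (-1.22, SE 0.29, adjusted p = 0.014), where ProDH was at 0.15. The second call was lost without mil4 sid2 replicate 2 (adjusted p = 0.0586).

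In Col with water ProDH2 gave 194.0, 100.3, 114.6 and 80.6, and with BTH 204.0, 256.1, 193.4 and 186.8, 2 groups that overlapped. The differences of 0.76 with BTH in Col, and of 0.92 in mil4 and 0.41 in sid2 against Col with water, missed the threshold. All 3 had the sign of those of ProDH, and that in mil4 came close (adjusted p = 0.0544 in limma), with no overlap of arrays. The interaction of mil4 with sid2 was -1.62 (SE 0.40, adjusted p = 0.0185). After BTH the gene was 2.63-fold higher in mil4 than in Col (1.39, SE 0.29, adjusted p = 0.00747), with values of 2.33, 0.91 and 0.97 within days 1, 2 and 3. Its r to ProDH over the 24 arrays was 0.13. OAT (AT5G46180), which turns ornithine into the same intermediate as ProDH makes from proline, was called in 1 comparison, with BTH in mil4 (0.47, SE 0.15, adjusted p = 0.035 in limma). This call ended when BTH replicate 1 or 3 or water replicate 1 or 2 of mil4 was left out (adjusted p up to 0.126). It was also lost with quantile normalization (0.112), median centring (0.149), run (0.0518) or module (0.199) as a block, and with the compared groups alone (0.0912).

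**Figure D4:**
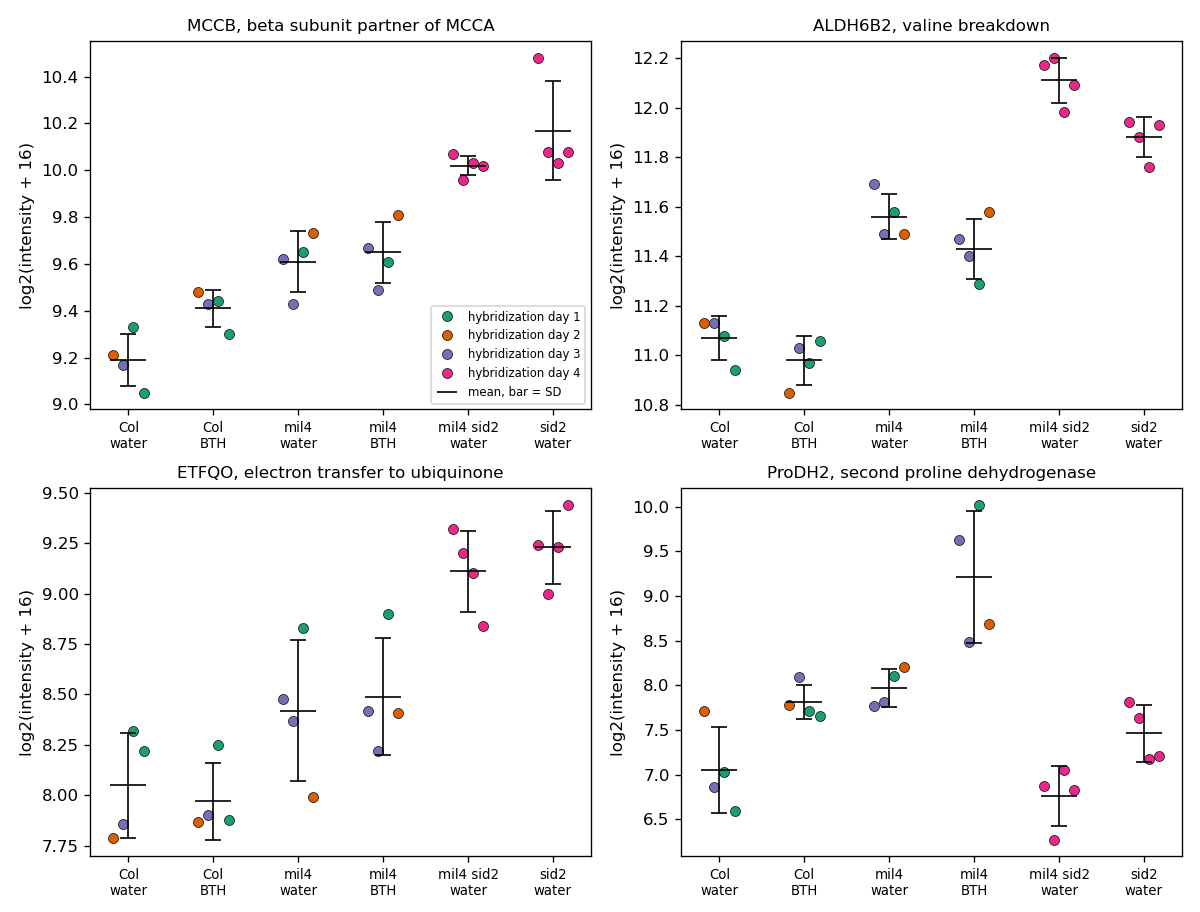
Levels as log2(intensity + 16) of MCCB, ALDH6B2, ETFQO and ProDH2 on each array, by group and coloured by hybridization day, with the mean and SD of 4 arrays in black. MCCB, ALDH6B2 and ETFQO were highest in the 2 genotypes with sid2, and ProDH2 was highest in mil4 with BTH, with a mean of 9.21.

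Of the remaining breakdown genes, ASPGA1, an asparaginase gene, rose in sid2 (0.33, SE 0.10, adjusted p = 0.0233) and in mil4 sid2 (0.67, SE 0.10, adjusted p = 3.8e-05) against Col, the first call being lost without Col water replicate 2 or 3 or sid2 replicate 2 or 3 (adjusted p up to 0.087). MGL, which encodes methionine gamma-lyase, was 2.05-fold higher in mil4 sid2 than in mil4 (1.04, SE 0.24, adjusted p = 0.0128, or 0.0508 without mil4 water replicate 1). Its limma call in mil4 sid2 against Col was lost in 7 of 8 fits that left out 1 array (adjusted p up to 0.127). LKR/SDH (AT4G33150), the first enzyme of lysine breakdown, rose in sid2 (0.75, SE 0.23, adjusted p = 0.0301), a call lost without Col water replicate 2, 3 or 4 or sid2 replicate 1 (adjusted p up to 0.129).

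Of the genes listed for the low-energy response, 3 of 14 had a named probe set. They were called higher than in Col for 3 of 3 in mil4, 3 of 3 in sid2 and 2 of 3 in mil4 sid2, where 3.24%, 6.64% and 7.03% of all probe sets were called higher. This list was drawn up with earlier results of these data known, and all 3 genes were brighter than the median probe set. These counts are therefore no independent support for a low-energy response. AKINBETA1 encodes a beta subunit of SnRK1, a kinase that is active when sugar is short. It gave 1405.0, 1171.4, 1279.9 and 1187.9 in Col with water, 2520.7, 2550.5, 2450.6 and 2746.0 in mil4 and 1948.7, 1565.0, 1638.5 and 2107.7 in mil4 with BTH, with no overlap. It rose 2.03-fold in mil4 (1.02, SE 0.13, adjusted p = 3.23e-05 in limma), 2.77-fold in sid2 (1.47, SE 0.13, adjusted p = 1.51e-07) and 2.7-fold in mil4 sid2 (1.43, SE 0.13, adjusted p = 1.76e-07). With BTH it fell in mil4 by 0.51 (SE 0.13, adjusted p = 0.0111) and was at 0.40 in Col, not called, and the responses differed by -0.90 (SE 0.19, adjusted p = 0.0174). The last call was lost when only the compared groups were fitted (-0.90, adjusted p = 0.0636), and with fluidics module as a block the fall in mil4 was lost (-0.42, adjusted p = 0.207). With run as a block, where the comparison rests on run 2 with 1 array per group, the difference in mil4 against Col was 0.79.

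AT3G15450 rose by 0.98 in mil4 (SE 0.16, adjusted p = 0.000291), 1.18 in sid2 (SE 0.16, adjusted p = 1.96e-05) and 1.04 in mil4 sid2 (SE 0.16, adjusted p = 7.64e-05). With run as a block, resting on run 2, the difference in mil4 was 0.64. AT1G68440 rose in mil4 (0.86, SE 0.18, adjusted p = 0.00338) and in sid2 (0.77, SE 0.18, adjusted p = 0.00545) and was at -0.35 in mil4 sid2, not called, so that it parted from MCCA and ProDH in the double mutant. AKINBETA1, AT3G15450 and AT1G68440 had interactions of mil4 with sid2 of -1.06, -1.12 and -1.98 (adjusted p = 0.00123, 0.00322 and 4.89e-05), on the side where the pair had -1.73 and -4.04. With run as a block, which again rests on run 2 for mil4 against Col, the first 2 were -0.82 and -0.78. Their median difference was 0.98 in mil4 and 1.18 in sid2.

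The bZIP transcription factors of groups C and S1, some of which are known to act on ProDH, had a named probe set for 2 of 9 genes. bZIP53, known to bind the ProDH promoter, and bZIP44 were called in none of the comparisons, with differences of 0.08 and 0.28 in mil4, -0.32 and -0.18 in sid2 and -0.74 and 0.50 in mil4 sid2 against Col. In Col with water bZIP53 gave 2309.0, 3342.3, 7395.2 and 2180.8, a wide spread set by replicate 3. No amino acid transporter of 9 and no senescence gene of 9 had a named probe set.

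By Pearson's r over the 24 arrays, the 5 named genes most like MCCA among 6750 brighter genes (mean level of at least 7) were AT2G42040 (r 0.959), ALDH6B2 (0.954), AT3G27770 (0.934), GI (0.929) and AKINBETA1 (0.929). GI, a clock gene with an evening peak, had mean levels of 10.46 in Col with water, 10.88 in mil4, 11.18 in mil4 sid2 and 11.09 in sid2. The genes most opposed were AT5G59540 (r -0.954), AT3G19030 (-0.946) and AT1G69730 (-0.945). Most like ProDH were AT1G32460 (0.969), AT3G15630 (0.958), AT2G30600 (0.949), bHLH121 (0.944), a transcription factor gene of iron balance, and AT3G02070 (0.928), and most opposed were AT1G23710 (-0.947), AT1G04770 (-0.944) and AT3G23170 (-0.936). No gene stood in both lists. The 5 genes most like each member spanned a narrower range of group means than that member, while AT3G19030, opposed to MCCA, ran from 11.31 in Col with water to 8.73 in mil4 sid2, a wider span than that of MCCA. AT3G15630 ran from 10.5 in Col with water to 12.79 in sid2, where ProDH ran from 8.95 to 13.14.

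**Figure D5:**
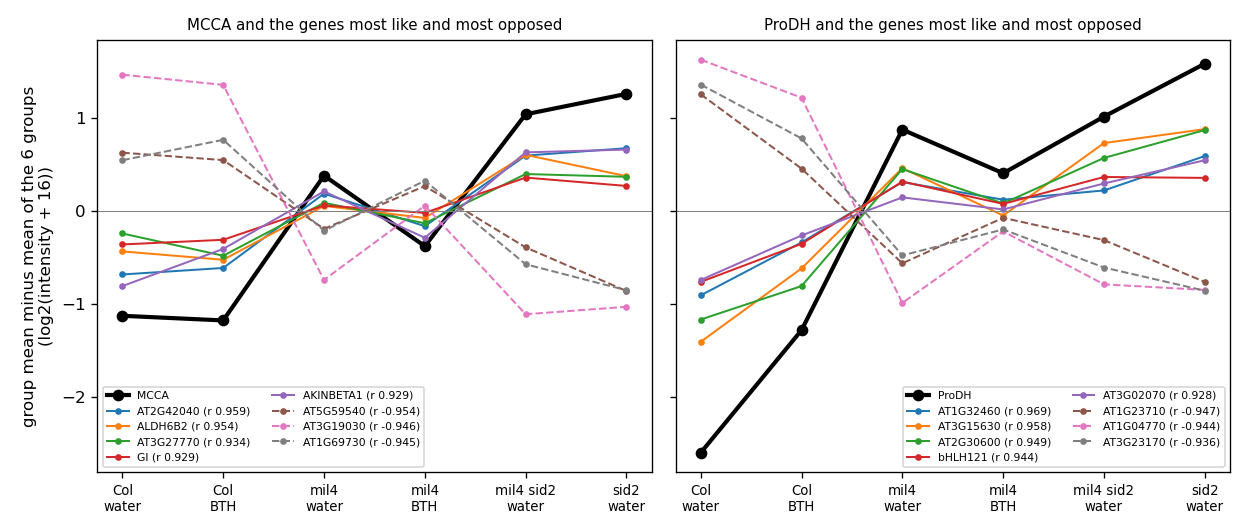
Group means minus the mean of the 6 groups, on the log2(intensity + 16) scale, for MCCA (left) and ProDH (right) in black with the 5 genes most like each (solid lines) and the 3 most opposed (dashed lines), with r over 24 arrays. The like genes were lowest in the Col groups, and ALDH6B2, AT3G27770 and GI had a higher mean in mil4 sid2 than in sid2, unlike MCCA.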

How the data were processed

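Probe-set intensities of 24 arrays, on a linear scale, were used as deposited by the authors with a common 2% trimmed mean near 500 on each, and the sources used here do not give software or background correction. The 64 control probe sets were left out, and log2(intensity + 16) was tested for 22746 probe sets with limma 3.58.1 in R 4.3.3 (all 24 arrays, a coefficient for each group, eBayes, 2-sided, Benjamini-Hochberg, threshold 0.05), after a check on simulated data. Differences of dim probe sets are understated on this scale. The design expected linear or log values and was kept. Per the labels, 15 µg of total RNA was used. Of these probe sets 13513 had 1 gene in the platform annotation, 503 had several and 8730 had none, and 13436 matched RefSeq loci (TAIR10.1, names only). Apart from ProDH, a listed gene was read only where a probe set named it alone. Listed genes without such a probe set may lie among those with several names or none, and they were not looked at.

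Members and lists were chosen with earlier results of these data known. Named were the pair, every branched-chain and proline gene with a named probe set, up to 4 of each other list by largest difference, and the 5 genes most like and 3 most opposed to each member. The comparisons of mil4 with Col after BTH and of mil4 sid2 with Col were added later. The p-values measure the spread between arrays, and their number, 4 per group, limits precision. Days and modules came from the array records, per the file headers. Runs were set from the recorded hybridization times, with a gap of over 30 minutes starting a new run. Same-numbered arrays of Col with water and with BTH shared a run, and their deviations from the group means correlated at 0.17 to 0.34 over bright probe sets. In every other comparison the lowest correlation was under 0.1. The Col arrays were thus taken as pairs, but only in alternative fits with the replicate number as a block, and the main tests used no block. When Col was fitted alone, 1057 probe sets were called with BTH with this block and 1962 without it. The main fit called 2886. Alternatives were other pseudocounts, scalings, filters, blocks, array weights, fits of the compared groups alone, and leaving out each array. Plots used Python 3.11.15 and matplotlib 3.10.9.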

Additional observations from a re-analysis of the deposited data

Results flagged for a closer look

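In 150 combinations of 25 genes with 6 groups of 4 arrays, 8 arrays lay far from the other 3, about the 1 in 20 that chance gives. For the pair these were MCCA on Col BTH replicate 1, at a log2 level of 8.27 where the others had 8.83 to 8.92, and ProDH on mil4 sid2 replicate 3, at 12.45 against 12.61 to 12.62. The sid2 replicate 1 array stood apart in 3 genes, with MCCB at 10.48 (others 10.03 to 10.08), bZIP53 at 11.82 (11.21 to 11.31) and AKINBETA1 at 11.49 (11.86 to 11.89). The rest were ETFQO on Col BTH replicate 3 (8.25, others 7.87 to 7.9), AT3G15450 on mil4 water replicate 3 (13.61, others 14.07 to 14.12) and AT1G68440 on mil4 sid2 replicate 1 (8.09, others 8.54 to 8.57).

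Responses that differed between genotypes by a test of the interaction in limma were as follows. The BTH response of AKINBETA1 was lower in mil4 than in Col (-0.90, adjusted p = 0.0174, or 0.0636 when only the compared groups were fitted). The difference made by mil4 was lower in sid2 plants than in plants with SID2 for MCCB (-0.56, adjusted p = 0.0271), ProDH2 (-1.62, adjusted p = 0.0185), AT3G15450 (-1.12, adjusted p = 0.00322), AKINBETA1 (-1.06, adjusted p = 0.00123) and AT1G68440 (-1.98, adjusted p = 4.89e-05), and higher for ETFALPHA (0.53, adjusted p = 0.0387). MCCB lost its call without any 1 of 5 arrays (adjusted p up to 0.0593). These were Col water replicates 2 and 4, mil4 water replicate 4, mil4 sid2 replicate 2 and sid2 replicate 1. ETFALPHA lost its call without any 1 of 11 of the 16 (up to 0.0845). It was also lost with quantile normalization (0.0782), median centring (0.106) and day (0.0558), module (0.135) or replicate number (0.056) as a block. With the groups alone, ETFALPHA (0.0947) and MCCB (0.0656) both missed the threshold.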

How the results depend on the processing

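The 402 recomputed differences and 48 recomputed levels of MCCA and ProDH all moved by less than the SD between replicates (0.24 and 0.36 on the log2 scale). Leaving out 1 array gave 1.43 to 1.60 for MCCA and 3.33 to 3.61 for ProDH in mil4 against Col with water, 2.31 to 2.48 and 4.04 to 4.32 in sid2 against Col, and 1.03 to 1.51 for ProDH with BTH in Col. Over the other settings the last ran from 1.23 to 1.35. Counts of called genes among the 18 were less stable. With BTH in mil4 (5 genes) the count was 3 under quantile normalization, 3 with median centring, 1 with module as a block and 0 in a fit of the 2 groups alone. With BTH in Col (1 gene) it was 3 among brighter probe sets, 0 with module as a block and 0 with the replicate block when Col was fitted by itself, where URE missed the threshold. For mil4 against Col with the groups alone it was 1 with water (2) and 0 after BTH (2). For sid2 against Col (6) it was 3 with the groups alone. For mil4 sid2 against mil4 (8) it was 3 with module as a block and 4 with the groups alone, and against sid2 (0) it was 2 among brighter probe sets. For the interaction of mil4 with sid2 (3) it was 1 with the groups alone. With the groups alone, ProDH2 missed the threshold with BTH in mil4 (adjusted p = 0.0542) and in mil4 against Col after BTH (0.0962), as did MCCB in mil4 against Col with water (0.113). A fit of the groups alone has fewer arrays, and the other causes were not tested. No count is given for run as a block where mil4 meets Col, since that comparison rests on 1 array per group. Module as a block separates BTH from module only through the day 4 arrays. Leaving out 1 array gave 2 to 7 genes with BTH in mil4, 1 to 2 in Col, 1 to 3 in mil4 against Col, 4 to 8 in mil4 sid2 against mil4 and 1 to 3 in the interaction. The replicate block in the fit of all groups gave 1, 5, 3, 6, 8, 0, 0 and 2 genes in the 8 planned comparisons, within 1.5 times of the counts without it. No day or run block could give sid2 or mil4 sid2 against Col or mil4.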
